A study of Mus musculus with 3 samples.

Results

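Enterocytes with high Rbp2 and Adh6a were taken from a single-cell RNA sequencing study of the mouse small intestine, in which 3 libraries were made from ICR male mice that were 3 weeks old at the start. AOS 0 was the control, and B + A 0 came from mice given a single dose of busulfan at 40 mg/kg body weight. B + A 10 came from mice given the same dose of busulfan plus 10 mg/kg of alginate oligosaccharides (AOS). Mice of all 3 groups were gavaged for 2 weeks, with water in AOS 0 and B + A 0 and with AOS in B + A 10. Busulfan is an alkylating drug used in chemotherapy, and AOS are short sugar chains made by breaking down alginate from brown seaweed. Each library held the cells of 6 mice combined, and 1 library stood for each group, so no spread between animals could be measured and no test between groups was possible. Groups follow the title and treatment labels, and the source label of the B + A 0 and of the B + A 10 library names another group, a conflict that the values were not used to settle.

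The cells were selected on their measured values. In each library, cells with 1500 or more UMIs per 10000 over the defensin (Defa) genes or 30 or more of Agr2, a gene of secretory cells, were left out, and the remaining cells were ranked by the summed natural log values of Rbp2, Papss2, Adh6a, Slc2a2, Adh1 and 2210407C18Rik. A UMI is a unique molecular identifier, the tag that marks 1 captured RNA molecule. The top 8% were kept, minus the cells that were also in the top 8% for a set led by Slc5a12 or in the top 3% for a set led by S100g. This gave 508 of the 12653 cells, which were 163 of the 4106 control cells, 113 of the 3195 B + A 0 cells and 232 of the 5352 B + A 10 cells. From here on, sets of 3 values run from AOS 0 through B + A 0 to B + A 10 unless stated. The number per library followed from the percentages in the rule and was no measure of how common the cells were.

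Enterocytes are the absorptive cells that line the villi, and those of the upper small intestine take up most of the sugar, fat and fat-soluble vitamins of a meal. Rbp2 is the cellular retinol-binding protein of the gut, which holds vitamin A on its way to being packed as retinyl ester, and Adh1 and Adh6a belong to the alcohol dehydrogenases, which oxidise alcohols. Papss2 makes the activated sulfate that sulfotransferases attach to hormones and drugs, and Slc2a2 encodes GLUT2, a carrier for glucose and fructose. No function was assigned here to 2210407C18Rik.

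The rule genes lie on chromosomes 3, 9, 11 and 19 (GENCODE vM21, GRCm38). Adh1 (chr3:138260991-138290698) and Adh6a (chr3:138313286-138331134) are neighbours on the plus strand of chromosome 3 with 22588 bases between the end of the first and the start of the second, and Slc2a2 (chr3:28697903-28731359) is far from both on the same chromosome. Rbp2 is at chr9:98486115-98509781 and Papss2 at chr19:32595790-32667187, both on the plus strand, and 2210407C18Rik is at chr11:58608204-58616075 on the minus strand. The promoter windows of 3 of them are shown as examples that hold a motif match. A window of Papss2 also held one, and the windows of Adh6a and 2210407C18Rik and the other Papss2 window, which held none, are not shown. The windows run from 250 bases before to 50 bases after the RefSeq start, all on the plus strand of GRCm38.p6, at chr9:98490287-98490586 for Rbp2, chr3:138277335-138277634 for Adh1 and chr3:28697653-28697952 for Slc2a2. Capitals mark matches to AGATAA, a form of the GATA motif, or CAAAGT, part of the motif of the nuclear receptor HNF4, on either strand (TTATCT and ACTTTG on the other strand).
Rbp2: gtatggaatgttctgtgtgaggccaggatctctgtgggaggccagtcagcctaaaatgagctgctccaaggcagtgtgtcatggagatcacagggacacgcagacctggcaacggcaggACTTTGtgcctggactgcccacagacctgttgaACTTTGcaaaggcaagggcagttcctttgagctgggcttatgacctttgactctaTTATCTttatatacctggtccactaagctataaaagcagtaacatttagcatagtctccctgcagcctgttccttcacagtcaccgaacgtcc
Adh1: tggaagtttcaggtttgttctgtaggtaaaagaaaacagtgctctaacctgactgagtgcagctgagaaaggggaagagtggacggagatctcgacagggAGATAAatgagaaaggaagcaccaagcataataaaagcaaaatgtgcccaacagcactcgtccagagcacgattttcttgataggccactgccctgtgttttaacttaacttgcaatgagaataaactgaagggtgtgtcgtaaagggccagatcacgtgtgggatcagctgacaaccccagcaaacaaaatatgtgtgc
Slc2a2: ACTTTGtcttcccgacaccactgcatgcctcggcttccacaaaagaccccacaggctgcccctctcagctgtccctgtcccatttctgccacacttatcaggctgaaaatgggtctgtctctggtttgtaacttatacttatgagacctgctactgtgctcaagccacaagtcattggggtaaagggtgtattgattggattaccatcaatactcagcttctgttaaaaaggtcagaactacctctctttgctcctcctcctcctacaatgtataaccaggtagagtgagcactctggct

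The Rbp2 window held 2 matches to the HNF4 letters and 1 to the GATA letters, the Adh1 window held 1 GATA match, and the Slc2a2 window held 1 HNF4 match. Of the 6 rule genes, 3 had the GATA letters in a window and 2 had the HNF4 letters, while 11.4% and 14.3% of the 27025 promoters of the RefSeq table did. Among the 3670 promoters of genes compared below, the shares were 6.38% and 12.4%. A rule gene counted if any of its windows matched, whereas these shares are of single promoters, so the measures differ. None of the 6 had TTTATG, letters of the CDX motif, on either strand, which 12.1% of promoters had. A match describes the letters only. The RefSeq starts of Rbp2 and Adh1 lie inside the GENCODE spans given above.

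The libraries differed in depth. The median count was 5987, 4997 and 2880.5 UMIs per selected cell, close to the 5789, 5188 and 2775 of the other enterocytes. The selected cells of B + A 0 held the fewest UMIs in all, 604199, and those of B + A 10 held 740522. After each cell was thinned to 1000 UMIs the selected cells had a median of 597, 589 and 593 genes. Across the libraries 82 barcodes occurred more than once, 7 selected cells carried one, and no barcode was selected in more than 1 library. In what follows a level is the UMIs of a gene summed over the cells of a group per 10000 UMIs summed over those cells, with an exact 95% Poisson interval that covers counting error only.

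The selected cells were the upper end of a continuous range and not a separate peak. The lowest score inside was 14.19, 14.57 and 14.39, and the first score outside was 14.19, 14.57 and 14.38. The 20 ranked cells on each side of the limit were taken before the cells of the other gene sets were removed. Those inside were therefore not all selected cells. In AOS 0 the Rbp2 level was 206 in the 20 cells just inside the limit and 205.1 in the 20 cells just outside it. In B + A 0 these levels were 236.3 and 195.3, and in B + A 10 they were 142.4 and 187.5. The median score of selected cells was 15.65, 15.99 and 15.67, against 9.26, 10.01 and 10.09 in other enterocytes.

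**Figure D1:**
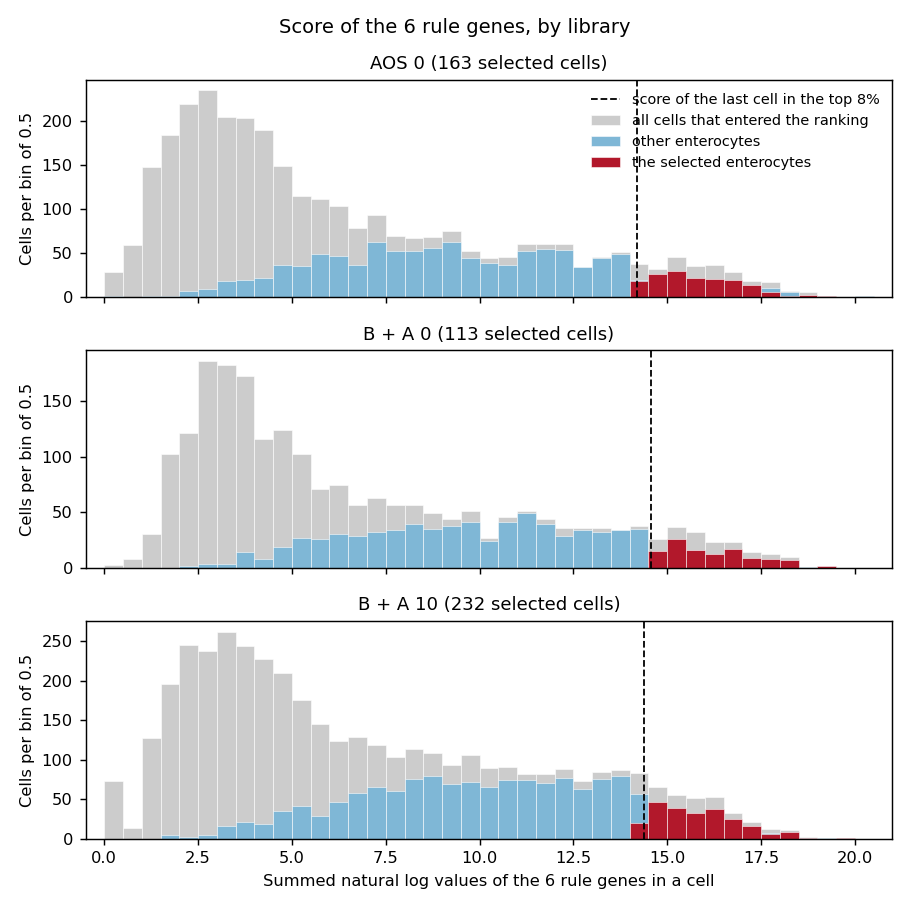
The histograms show the number of cells (vertical axis, bins of 0.5) by the summed natural log values of the 6 rule genes (horizontal axis) in each library, with all ranked cells in grey, other enterocytes in blue and selected cells in red, each drawn from 0. The dashed line is the score of the last cell in the top 8%, at 14.19, 14.57 and 14.39 in library order, and no gap in the counts is seen there.

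The comparison group, called other enterocytes, was the top 40% of ranked cells by Fabp1, Apoa1, Alpi, Sis, Anpep and Krt20 without the selected cells, and it held 1089, 768 and 1428 cells. Of the selected cells, 161 of 163, 112 of 113 and 220 of 232 were within that same top 40%. The other enterocytes still included cells of the sets led by Slc5a12 and S100g, which the rule had removed from the selection. The values of the rule genes that follow chose the cells, so they are a description. Levels of the 6 genes that ranked the other enterocytes are likewise set in part by that ranking. The Rbp2 level was 222 (219 to 225), 235 (231 to 239) and 210 (206 to 213), against 108, 109 and 125 in other enterocytes. Papss2 was 15.2, 16.2 and 15.7 against 4.74, 5.17 and 6.29. Adh6a was 7.26, 8.77 and 8.75 against 3.09, 3.02 and 3.24. All 3 genes were also seen in the other enterocytes, and the selected cells held about the same level in each library.

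Adh1 was 4.14, 4.20 and 4.89 in the selected cells against 1.02, 1.28 and 1.53 in the other enterocytes. Slc2a2 was 1.80, 1.41 and 1.77 against 0.542, 0.659 and 0.838. The level of 2210407C18Rik was 44.5, 52.1 and 42.6 against 17.8, 18.5 and 18.3. In crypt cells, the top 20% of non-enterocytes by 6 stem cell genes, the summed level of the 6 rule genes was 6.84, 8.91 and 9.67, against 295, 318 and 283 in the selected cells. All 508 selected cells had UMIs of Rbp2 and 2210407C18Rik, 198 had all 6 genes, 280 had 5 and 30 had 4. All 6 were present in 54.6%, 45.1% and 25.0% of selected cells, an order that runs with depth.

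The rule genes differed in how they varied among the selected cells. The Rbp2 level of single cells ran from 129 at the 10th percentile to 323 at the 90th over the 508 cells, a 2.51-fold range, and Papss2 ran from 4.98 to 28.7, Adh6a from 2.13 to 16.3 and 2210407C18Rik from 17.7 to 79.3. Across selected cells of 1 library, Rbp2 went with Fabp2, the gut fatty acid-binding protein (Spearman's rho 0.55, 0.58 and 0.55), and with Fabp1, its liver-type relative (0.57, 0.44 and 0.57). In contrast, 2210407C18Rik went with Lypd8, a secreted protein that keeps flagellated bacteria off the colonic epithelium (0.56, 0.56 and 0.48), and against Fabp1 (-0.34, -0.45 and -0.40). Papss2 went weakly against Lypd8 (-0.24, -0.30 and -0.29). These are descriptions over 163, 113 and 232 cells that share a library, differ in depth and were chosen on 1 gene of each pair. Rbp2, Papss2 and 2210407C18Rik are summed in the score, so contrasts among them are shaped in part by the rule.

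The label proximal was checked against genes that the rule did not use. Fabp6, the bile acid-binding protein of the ileum, was at 2.98 (2.66 to 3.33), 5.13 (4.58 to 5.73) and 6.18 (5.63 to 6.78) in the selected cells, against 98.7, 87.2 and 53.6 in other enterocytes and 2.78, 5.84 and 4.95 in crypt cells. The selected cells were thus close to the crypt cells in every library. After thinning to 1000 UMIs, 23.9%, 38.9% and 40.1% of selected cells had a Fabp6 UMI, against 25.4%, 36.0% and 37.0% of crypt cells, and the unthinned shares were 76.1%, 94.7% and 76.7% against 82.9%, 93.2% and 81.5%. Median depth in crypt cells was 7529, 6428 and 3738 UMIs. In other enterocytes the thinned share was 44.6%, 53.4% and 45.2%. The median other enterocyte held Fabp6 at 3.98, 6.25 and 4.47, against 1.95, 4.32 and 3.81 in the median selected cell. The 90th percentile of other enterocytes was 388, 284 and 35.7. Their high summed level thus came from part of these cells, and low Fabp6 was not particular to the selected cells. None of the selected cells was in the top 8% of its library by Fabp6, Slc10a2, Slc51a and Slc51b, which are genes of ileal bile acid uptake.

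Markers of the upper intestine gave a less uniform picture. Fabp1 was 247, 258 and 248 against 114, 134 and 154 in other enterocytes, Apoa4, a lipoprotein of chylomicrons, was 57.9, 69.9 and 62.7 against 36.3, 34.3 and 43.4, and Slc46a1, the folate carrier, was 1.11, 0.976 and 1.22 against 0.539, 0.496 and 0.746. Each was higher in all 3 libraries, though Fabp1 was among the genes that ranked the other enterocytes. Lct, the lactase gene, was 3.77, 4.42 and 3.73 against 3.103, 3.91 and 4.80, higher in AOS 0 and B + A 0 and lower in B + A 10, and Gata4, a transcription factor of the upper intestine, was 0.492, 0.348 and 0.473 against 0.411, 0.363 and 0.411. Cyp3a11, another gene of the list, was lower than in other enterocytes in AOS 0, higher in B + A 0 and close to them in B + A 10, with levels given below. Cybrd1, an iron reductase of the duodenum, had 1, 0 and 3 UMIs. The selected cells thus had Fabp6 near the level of crypt cells, and held 4 of the 7 compared proximal genes above other enterocytes in each library. The summed proximal level was 311, 335 and 318 in the selected cells and 338, 339.7 and 299.6 in the cells ranked highest for Slc5a12 and its set, higher than the selected cells in AOS 0 and lower in B + A 10, against 155, 174 and 205 in other enterocytes.

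The selected cells were next compared with the other enterocytes over all genes. A gene entered if both groups together had at least 100 UMIs in each library, which 4614 genes did, and a gene counted as higher or lower if it was past 2-fold in all 3 libraries. No more than 3 genes, 0.065% of those compared, were higher, and 28, 0.607%, were lower. The number of higher genes depended on the subtraction, and more were higher without it, as given in the last section. Because the cells were chosen on some of these very counts, the comparison is a description with no test. The median ratio of all genes compared was 1.00, with 1097 above 1 and 981 below 1 in all 3 libraries.

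The 3 higher genes were Gsta1, Adh4 and Ces1f. Gsta1, a glutathione transferase that couples toxic compounds to glutathione, was 1.03 (0.846 to 1.25), 1.27 (1.01 to 1.59) and 1.49 (1.22 to 1.79) in the selected cells against 0.420, 0.476 and 0.433. Ces1f, a carboxylesterase that splits esters of drugs and lipids, was 2.46 (2.17 to 2.78), 2.68 (2.28 to 3.13) and 2.498 (2.15 to 2.89) against 1.12, 1.13 and 1.15. Adh4, an alcohol dehydrogenase that also oxidises retinol, was 0.743 (0.586 to 0.928), 0.877 (0.657 to 1.15) and 0.797 (0.607 to 1.03) against 0.310, 0.333 and 0.314. None of their intervals reached the level in the other enterocytes of the same library. The genes were picked for ratios past 2-fold, so this adds no support. Adh4 (chr3:138415466-138430892) lies on the same strand as Adh1 and Adh6a, and the 5 alcohol dehydrogenase genes examined are in 237.74 kb.

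The 7 genes that came next by their smallest ratio were Gm3776, Onecut2, Ap1s3, Nat8f5, Gstt1, Gsta4 and Acaa2, and 3 of them are glutathione transferases by name or annotation. Gm3776, a near copy of Gsta1 beside it on chromosome 9, was 3.03, 4.34 and 3.70 against 1.46, 1.85 and 1.88. How reads shared by the copies were counted was not examined, so both values are uncertain. Onecut2, a transcription factor of the upper intestine, was 1.48, 1.47 and 2.21 against 0.755, 0.777 and 0.990. Acaa2, an enzyme of mitochondrial fatty acid breakdown, was 2.60, 3.03 and 2.94 against 1.37, 1.54 and 1.77. All remained under 2-fold in at least 1 library.

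Genes of drug and toxin handling were mostly higher than in other enterocytes. Of 20 compared genes of the list for xenobiotic metabolism, 2 were past 2-fold higher and none past 2-fold lower, 15 were above 1 in all 3 libraries, and the median ratio was 1.34. Gstm3, another glutathione transferase, was 1.93, 1.81 and 1.29 times the other enterocytes, Cyp2d26, a cytochrome P450, was 1.59, 1.81 and 1.61 times, and Ephx2, an epoxide hydrolase, was 1.60, 2.17 and 1.49 times. The summed level of the list was 43.9, 49.97 and 45.8 in the selected cells, 33.8, 36.0 and 37.3 in other enterocytes and 46.5, 45.8 and 44.7 in the Slc5a12 set, the top 8% of ranked cells by Slc5a12 and 5 other genes, so it did not set the selected cells apart from that set. The exceptions within the list included both efflux pumps, with Abcb1a at 0.48, 0.65 and 0.70 times and Abcg2 at 0.82, 0.72 and 0.88 times.

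Other vitamin A genes were compared in the same way. Of 6 compared genes of the retinoid list, 4 were above 1 in all 3 libraries, none was past 2-fold and the median ratio was 1.22. The summed level of the list was 15.8, 17.0 and 16.2 in the selected cells, 12.8, 13.7 and 14.2 in other enterocytes and 15.5, 16.8 and 17.0 in the Slc5a12 set, which was thus close to the selected cells. Aldh1a1, a retinaldehyde dehydrogenase, was 5.32, 6.55 and 5.29 against 3.52, 4.32 and 3.89, and Rdh7, a retinol dehydrogenase, was 1.495, 1.19 and 1.54 against 0.904, 0.864 and 1.14. Lrat, which esterifies the retinol that Rbp2 carries, had too few UMIs to be compared and was at 0.318, 0.463 and 0.338 against 0.136, 0.124 and 0.182. Isx, the factor that restrains carotene uptake, was 0.685, 0.662 and 0.662 against 0.716, 0.650 and 0.611, within the counting intervals.

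Genes that work with Papss2 and Slc2a2 were divided. In the sulfation list, 4 of 8 compared genes were above 1 in all 3 libraries and 3 were below. Bpnt1, which clears the by-product of sulfate transfer, was 7.91, 7.50 and 8.99 against 4.97, 5.16 and 6.63, whereas Papss1, the relative of Papss2, was lower at 0.511, 0.761 and 0.581 against 0.968, 1.00 and 0.811. In the list for sugar uptake and fructose use, 4 of 6 were above 1 in all 3 libraries with a median ratio of 1.29, and of 6 genes for glucose release 4 were above 1 with a median of 1.20. Slc2a5, the fructose carrier, was 0.627, 0.894 and 0.594 against 0.325, 0.381 and 0.456.

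Fat handling was divided between genes. Of 17 compared, 8 were above 1 in all 3 libraries and 2 were below, with a median ratio of 1.15. Mttp, which loads fat onto chylomicrons, was 22.3, 21.2 and 18.7 against 14.9, 13.9 and 15.1, whereas Fabp2 was lower at 148, 145 and 109 against 212, 171 and 164. In the Slc5a12 set Fabp2 was 597, 421 and 344 and Apoa1 441, 330 and 318, against 149, 180 and 147 of Apoa1 in the selected cells. That set is defined in part by Apoc3, another lipoprotein gene, so its values are a description.

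**Figure D2:**
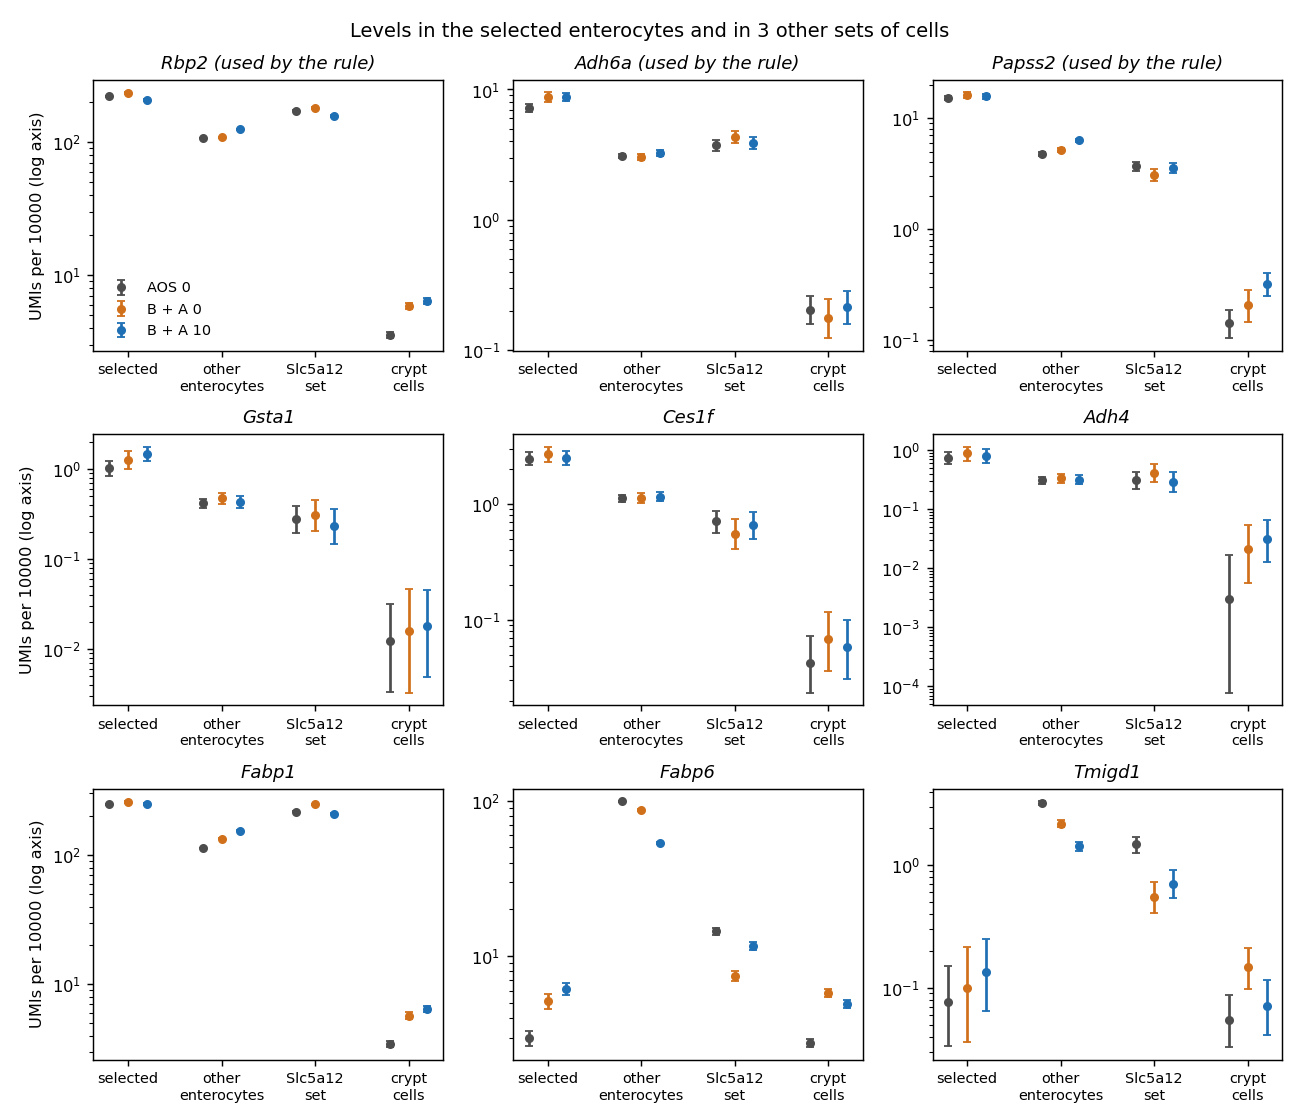
Each panel gives the level of 1 gene in UMIs per 10000 (vertical log axis) in the selected enterocytes, other enterocytes, the Slc5a12 set and crypt cells, with a point per library coloured by group and its 95% Poisson interval as a bar. Rbp2, Adh6a and Papss2 were used by the rule. Gsta1, Ces1f and Adh4 were past 2-fold higher in the selected cells than in other enterocytes of each library. Fabp6 in the selected cells was 2.98 to 6.18, near the 2.78 to 5.84 of crypt cells.

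The 28 lower genes were led by Slc5a8, Slc10a2, Plb1, Tmigd1, Cubn, Fabp6, Fam151a, Mep1a, Saa1 and Slc34a2. Slc5a8, a carrier of short-chain fatty acids, had 4, 3 and 1 UMIs in the selected cells against levels of 0.823, 0.735 and 0.696 in other enterocytes, and Slc10a2, the ileal bile acid carrier, had 2, 2 and 3 UMIs against levels of 1.32, 0.986 and 0.526. Plb1, a brush border phospholipase, had 0, 1 and 2 UMIs, where a count of 0 allows a level of up to 0.0289, against levels of 0.371, 0.333 and 0.287. Slc34a2, a phosphate carrier, was 0.260, 0.265 and 0.311 against 2.17, 1.62 and 1.44. Mep1a, a brush border protease, was 0.116, 0.149 and 0.108 against 0.908, 0.705 and 0.570.

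Some of these genes belong to the distal intestine, and the other enterocytes held ileal cells. All 6 genes of the distal list were below 1 in all 3 libraries, 4 of them past 2-fold, with a median ratio of 0.0746. When the ileal cells were taken out of the comparison group, 13 genes in place of 28 were past 2-fold lower, and the Fabp6 ratio was 0.15, 0.34 and 0.65 in place of 0.03, 0.06 and 0.12. Slc5a8 stayed at 0.08, 0.11 and 0.03, Slc34a2 at 0.14, 0.20 and 0.25 and Fam151a at 0.05, 0.06 and 0.22. These genes were thus low against the remaining enterocytes too. Those enterocytes still held cells of the Slc5a12 and S100g sets, so genes high in such cells are lower here in part by the rule. Gsta1 was then at 2.15, 2.44 and 3.16, Adh4 at 2.11, 2.33 and 2.48 and Ces1f at 2.08, 2.26 and 2.09.

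The genes of the lower villus were split, with 4 of 9 compared above 1 in all 3 libraries and 2 below. Reg3b, a lectin that kills bacteria, was 249, 220 and 224 against 435, 447 and 317, and its neighbour Reg3g was 206, 194 and 200 against 311, 326 and 241. How reads shared by these related genes were counted was not examined. Il18, an epithelial cytokine, was higher at 2.99, 2.45 and 1.86 against 1.60, 1.71 and 1.20, and Lypd8 was 77.2, 69.1 and 67.7 against 76.0, 66.7 and 60.3. Of the villus tip list, Ada, which breaks down adenosine, had 9, 14 and 33 UMIs and Nt5e, which makes adenosine, had 0, 0 and 2.

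**Figure D3:**
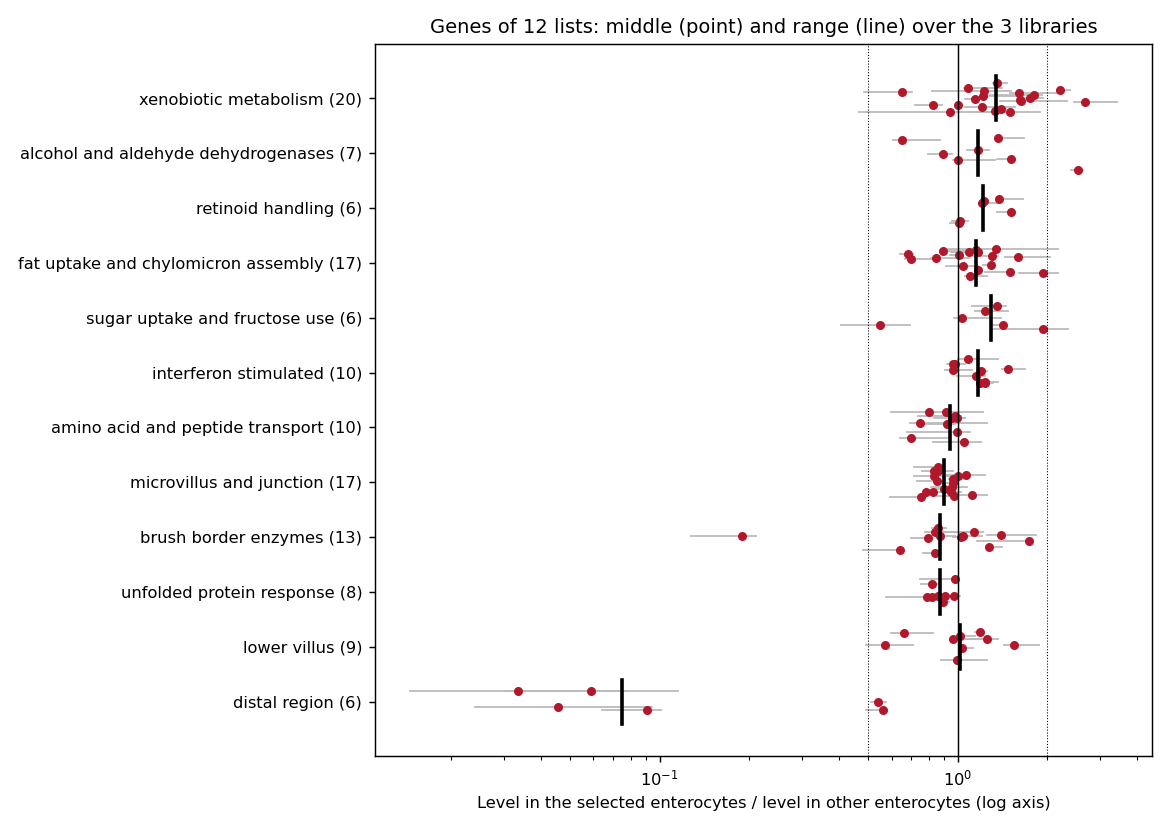
For 12 gene lists (number of compared genes in brackets), each point is the middle of the 3 libraries' ratios of the level in selected enterocytes to that in other enterocytes (log axis), each grey line their range and each black bar the list median; dotted lines mark 2-fold. The xenobiotic list had a median of 1.34 and the distal list 0.0746, while microvillus and junction genes lay at 0.897.

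Structural and stress genes lay near or under the other enterocytes. Of 17 genes for microvilli and cell junctions none was above 1 in all 3 libraries and 9 were below, with a median ratio of 0.897. Their summed level was 74.9, 73.6 and 71.6, against 83.4, 79.9 and 83.9 in other enterocytes. It was 102.9, 91.8 and 100.7 in the Slc5a12 set, whose cells the rule took out of the selection. For the unfolded protein response, 7 of 8 genes were below 1 with a median of 0.875. Of 13 brush border enzymes, 4 were above and 6 below. Dpp4, a peptidase, was 2.05, 1.70 and 1.26 against 3.20, 2.63 and 2.61, and Treh, which splits trehalose, was 1.40, 1.75 and 1.63 against 1.11, 0.956 and 1.17. Of 10 interferon-stimulated genes, 6 were above 1 in all 3 libraries, with a median of 1.17.

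Genes of other cell types were counted in the selected cells as well. The summed level of 6 Paneth cell genes was 21.5, 56.4 and 33.8, against 22.9, 48.7 and 37.1 in other enterocytes and 30.8, 53.6 and 43.9 in crypt cells, with all 6 present. The sum of 7 goblet cell genes was 44.7, 76.3 and 55.3 against 45.9, 102 and 117, and that of 7 T cell genes was 1.08, 2.53 and 5.19 against 3.72, 4.53 and 6.21, again with none at 0. The median selected cell held Defa24, a Paneth cell defensin, at 13.0, 33.7 and 21.3, and single cells reached 716, 624 and 583. Of the B cell and myeloid list, Cd79a and Lyz2 were at 0 and nearly all of the sum came from Cd74, the antigen-presentation chaperone that enterocytes also make. The 3 stromal markers were at 0. The rule left cells out on 2 of the Paneth genes, Defa24 and Defa30, and on 1 of the goblet genes, Agr2. The Paneth and goblet sums are thus limited in part by the rule. The Paneth, goblet and T cell sums differed between libraries, and their part in the differences below was not tested.

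The next question was how the selected cells differed between the 3 treatments. With 1 library of combined mice per group, a ratio between libraries describes those libraries, its 95% interval covers counting error only, and treatment, animals and library preparation cannot be told apart. A gene entered if the 2 libraries together had at least 100 UMIs over the selected cells, and it was counted if its ratio passed 1.5-fold.

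Between B + A 0 and AOS 0, 39 of 2235 genes (1.74%) were higher after busulfan and 67 (3%) were lower, with a median ratio of 0.965. The 10 with the largest ratios were Gstp1, AY761184, Ang4, Lyz1, Retnlb, Cyp3a11, Ccl5, Itln1, Gzma and Irf2bp2. Gstp1, a glutathione transferase, was 0.859 (0.690 to 1.06) in AOS 0, 3.86 (3.38 to 4.38) in B + A 0 and 3.74 (3.31 to 4.21) in B + A 10, a ratio of 4.49 (3.50 to 5.80) between the first pair. The other enterocytes showed the same order at 0.772, 3.02 and 2.93. Gstp2, a near copy, was 0.338, 0.596 and 0.918. How reads shared by the copies were counted was not examined, so both values are uncertain.

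Cyp3a11, a major drug-oxidising cytochrome P450 of the mouse, was 0.376 (0.268 to 0.514), 1.16 (0.903 to 1.46) and 0.918 (0.713 to 1.16). Its ratio of B + A 0 to AOS 0 was 3.08 (2.05 to 4.68) in the selected cells and 1.09 (0.96 to 1.25) in other enterocytes, whose levels were 0.808, 0.885 and 0.972. The selected cells of AOS 0 were thus below their neighbours and those of B + A 0 above. The ratio rested on 39 and 70 UMIs and was 1.80 when the cells were scored after thinning and 1.91 when the other gene sets were not subtracted.

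Of 16 compared xenobiotic genes, 4 were higher in B + A 0 (Cyp3a11, Cyp3a25, Gsta4 and Gstm1) and 1 was lower (Ugt2a3), with a median ratio of 1.15. Gstm1 was 1.03, 1.77 and 1.09 and Gsta4 was 0.704, 1.13 and 1.01. Cyp1a1, the classic target of the aryl hydrocarbon receptor, had too few UMIs for this pair and is named after its values were seen. Its level was 0.193 (0.118 to 0.298), 0.828 (0.614 to 1.09) and 1.16 (0.929 to 1.43) in the selected cells and 0.0942, 0.165 and 0.660 in other enterocytes. It was higher in the selected cells than in other enterocytes in every library, with the widest gap in B + A 0.

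The remaining top genes were mainly those of secretory and immune cells. Lyz1, a Paneth cell lysozyme, was 1.49, 5.28 and 2.38, and Ang4, a Paneth cell antimicrobial, was 0.704, 2.62 and 0.905. Other enterocytes gave 1.90, 5.22 and 2.36 of Lyz1 and 1.10, 2.21 and 1.08 of Ang4. Gzma, a granzyme of intraepithelial T cells, was 0.598, 1.54 and 3.13, and 20.2%, 50.4% and 40.1% of selected cells had a UMI of it. Its ratio of B + A 0 to AOS 0 was 2.57 as reported, but 0.921 with the top 12% selected and 0.719 with cells scored after thinning, so its direction depended on which cells were chosen. Lyz1, Ang4 and Gzma are markers of other cell types. The sums of the Paneth, goblet and T cell lists above were also higher in B + A 0 than in AOS 0, and those of Paneth and goblet cells include genes of the rule.

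The lower genes were led by Tfrc, Cd74, H2-Bl, Tle4, Ifi27l2b, B4galt5, Samd9l, Afg3l2, Slfn5 and Wasf2. Tfrc, the transferrin receptor, was 1.10 (0.907 to 1.32) in AOS 0 and 0.463 (0.308 to 0.670) in B + A 0, with 0.702 in B + A 10. Cd74 was 5.97 (5.51 to 6.46), 2.68 (2.28 to 3.13) and 4.44 (3.98 to 4.95), and H2-Bl, a class I histocompatibility gene, was 1.53, 0.695 and 0.338. Ifi27l2b, an interferon-induced gene, was 16.1, 7.45 and 34.7. Both Cd74 and Ifi27l2b were thus lowest in B + A 0. The other enterocytes had the same order, at 11.03, 6.13 and 8.03 of Cd74 and 14.3, 6.48 and 34.7 of Ifi27l2b. Tle4, a corepressor, was 0.791, 0.364 and 0.662 in the selected cells, on 22 UMIs in B + A 0, and 0.793, 0.802 and 0.817 in other enterocytes, and the difference between the groups was not tested.

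Of 16 compared fat-handling genes none passed 1.5-fold in either direction, and of 10 enterocyte markers only Sis was counted. With 1.74% of all compared genes higher and 3% lower, counts this small were near the share over all genes. Sis, the sucrase-isomaltase of the brush border, was 8.98 (8.41 to 9.58), 5.63 (5.04 to 6.26) and 5.05 (4.55 to 5.59), a ratio of 0.63 (0.55 to 0.71) for B + A 0 to AOS 0. Other enterocytes were at 8.12, 6.74 and 6.03, but they were ranked in part by Sis, so these levels are a description. Apoa1, the main protein of high-density lipoprotein, was 149, 180 and 147, and its ratios of 1.21 and 0.82 stayed under the limit. Apoc2, which activates lipoprotein lipase, was 0.145, 1.19 and 0.513 on 15, 72 and 38 UMIs, too few for the first comparison, and is named after its values were seen.

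Between B + A 10 and B + A 0, the pair that differs by AOS, 41 of 1878 genes (2.18%) were higher with AOS and 24 (1.28%) were lower, with a median ratio of 1.01. The higher genes were led by Ifi27l2b, Gzma, Hnrnpl, Prr15, Son, Ccl5, Arf3, Ube2l6, Fkbp4 and Ifit3. The Ifi27l2b ratio was 4.66 (4.21 to 5.16), against 5.36 (5.15 to 5.58) in other enterocytes. Of 9 compared interferon-stimulated genes, 2 were higher (Ifit3 and Rsad2) and none lower, with a median ratio of 1.23, after a median of 0.776 between B + A 0 and AOS 0 with 1 lower (Ifit3). Ifit3 was 1.85, 1.09 and 1.89, Isg15, a ubiquitin-like interferon product, was 15.2, 11.1 and 14.0, and Ifit1 was 8.92, 6.74 and 10.1. All 3 were lowest in B + A 0, as they were in other enterocytes.

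The lower genes were led by Stx6, Ang4, Apoc2, Lyz1, Mptx1, AY761184, Ccl6, Muc2, Itln1 and Ceacam1. Stx6, a syntaxin of endosome traffic, was 0.907 (0.733 to 1.11), 1.34 (1.06 to 1.67) and 0.284 (0.176 to 0.433), and 1.31, 1.28 and 0.431 in other enterocytes. Ceacam1, a cell adhesion protein, was 3.19, 2.93 and 1.44 against 6.11, 5.29 and 3.53. All 3 compared Paneth cell genes were lower in B + A 10, with a median ratio of 0.45, and all 3 had been higher in B + A 0 than in AOS 0. Muc2, the goblet cell mucin, was 1.89, 3.19 and 1.54 in the selected cells but 2.34, 4.10 and 4.79 in other enterocytes, and its ratio of 0.48 was 0.75 with the top 5% selected and 0.64 without the 26 selected cells highest in Paneth, goblet and T cell genes.

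Between B + A 10 and AOS 0, which differ by both treatments and share libraries with the pairs above, 81 of 2393 genes (3.38%) were higher and 88 (3.68%) were lower, with a median ratio of 0.963. The higher genes were led by Cyp1a1, Gzma, Ccl5, Gstp1, Gstp2, Retnlb, Hspa8, Cyp3a11, Gstm2 and Slc4a7. The Cyp1a1 ratio was 6.02 (3.67 to 10.34) and that of other enterocytes was 7.01 (5.34 to 9.32). The Gzma ratio was 5.24 as reported and 0.926 with cells scored after thinning. Hspa8, the constitutive heat shock chaperone, was 3.50 (3.15 to 3.88), 6.54 (5.91 to 7.22) and 8.83 (8.17 to 9.54) against 3.60, 6.98 and 7.94, so the 3 libraries had the same order in both groups. Slc4a7, a bicarbonate carrier, was 1.05, 1.52 and 2.40 against 0.836, 0.887 and 1.43.

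The lower genes were led by H2-Bl, Stx6, Ifit2, Ceacam1, Ly6a, Glud1, Rsrp1, Gimd1, Agmat and Psmc6. The H2-Bl ratio was 0.22 (0.14 to 0.34), and that of other enterocytes 0.19 (0.15 to 0.23). Ly6a, a surface protein induced by interferon, was 6.90, 3.96 and 3.27, and Glud1, the mitochondrial glutamate dehydrogenase, was 1.55, 1.32 and 0.743 against 2.43, 2.09 and 2.05. Sis was at a ratio of 0.56 (0.50 to 0.63) and Dpp4 was the other brush border enzyme counted as lower of 12 compared. Of 11 transcription factors, 2 were higher (Onecut2 and Klf4) and 2 lower (Hnf4g and Cdx2).

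**Figure D4:**
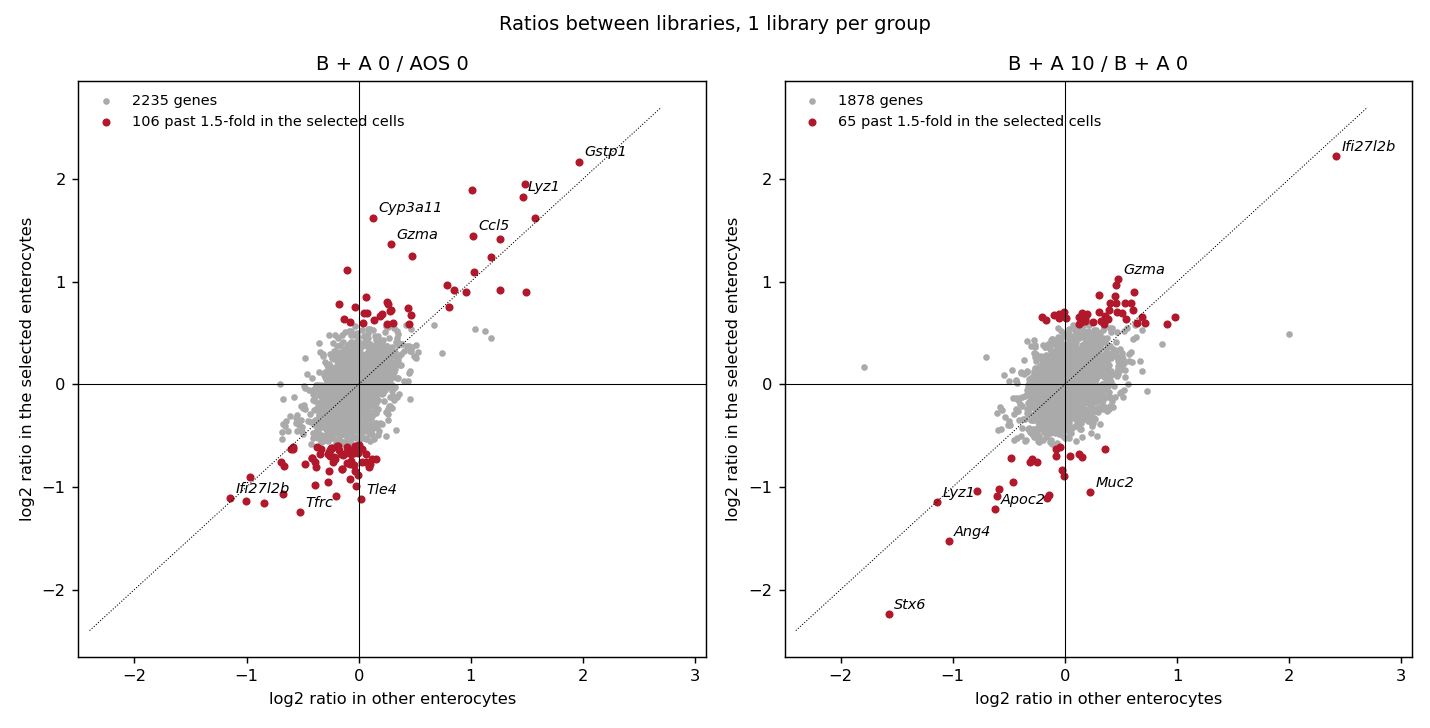
Each point is a gene with at least 100 UMIs over the selected cells of the 2 libraries, placed by its log2 ratio between libraries in other enterocytes (horizontal) and in the selected enterocytes (vertical), with genes past 1.5-fold in the selected cells in red and a dotted line of equal ratios. Gstp1 and Ifi27l2b lie near that line, whereas Cyp3a11 and Tle4 lie near 0 on the horizontal axis.

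Some of these differences were shared with the other enterocytes of the same libraries. Of the 39 genes higher in B + A 0, 15 (38.5%) also passed 1.5-fold upward in other enterocytes, which was 75% of the 20 genes that passed there, and of the 67 lower genes 9 (13.4%) did, 50% of 18. For B + A 10 against B + A 0 the shared genes were 9 of 41 higher and 6 of 24 lower, of 20 and 10 in other enterocytes. The sets have the same libraries in common, and no test was made of a difference between the selected cells and other enterocytes. With at least 300 UMIs required of a gene in place of 100, 13 genes were higher and 8 lower in B + A 0 than in AOS 0.

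**Figure D5:**
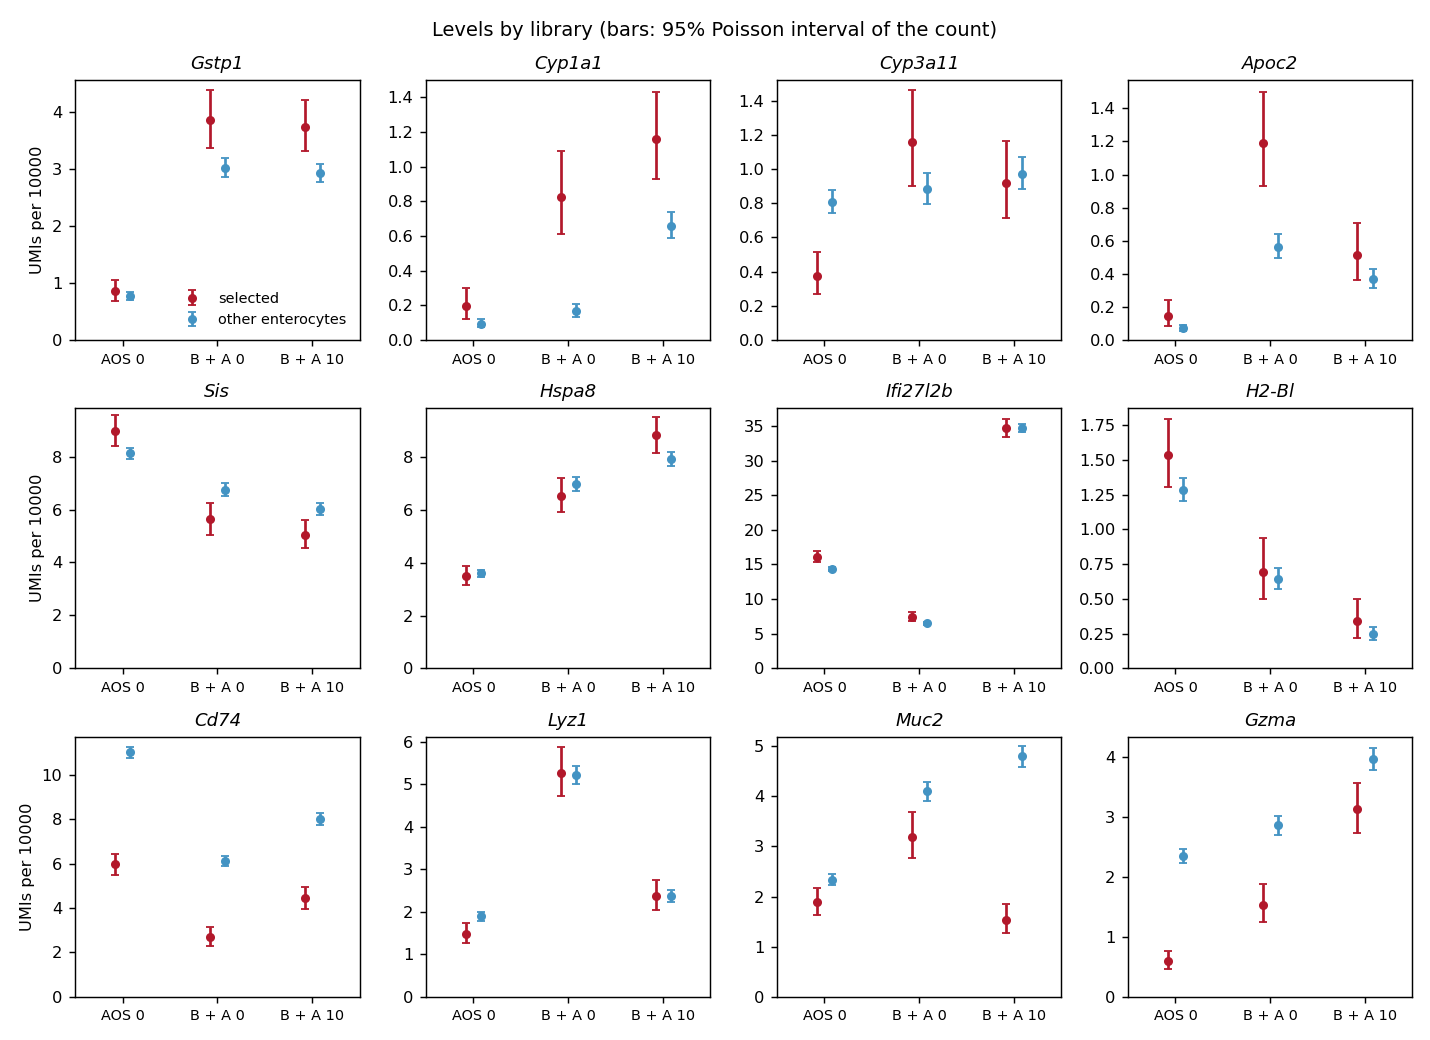
Levels of 12 genes in UMIs per 10000 (vertical axis from 0) in the 3 libraries are drawn for selected enterocytes (red) and other enterocytes (blue), with 95% Poisson intervals as bars. Gstp1 was 0.859 in AOS 0 and 3.86 and 3.74 after busulfan, Ifi27l2b and Cd74 were lowest in B + A 0, and Lyz1 and Gzma, which mark other cell types, also differed between libraries.

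The S100g set was the other subtraction, and it touched the library comparison. S100g, the calcium carrier calbindin of the duodenum, was 3.20, 8.72 and 17.9 in the selected cells, and Reg1, a lectin of the upper intestine, was 29.4, 44.1 and 50.3. The summed score above which cells were removed was 9.42, 12.7 and 13.4, so cells with more S100g were left in the selection of the libraries from busulfan-treated mice, and these 2 orders are fixed in part by the rule. In other enterocytes S100g was 9.65, 16.1 and 19.1 and Reg1 was 16.4, 16.7 and 20.4.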

How the data were processed

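Single cells of the mouse small intestine were measured in 3 libraries of 6 mice each (10x 3' chemistry). Cell Ranger 2.2.0 and the mm10 build are named in the submitters' processing notes. The deposited table holds natural log values, which the authors made from UMI counts scaled to 10000 per cell, for 13891 genes in 12653 cells. UMIs were recovered from these values, and 100% of the 24333763 values above 0 came out whole within 0.01 UMI.

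The cells and gene lists were chosen with earlier results of these data known. UMIs were summed over the cells of a group in each library and given per 10000 with exact Poisson 95% intervals. Ratios of libraries have intervals from the exact binomial, and with 1 library per group no test was made. Median depth was 2880.5 to 5987 UMIs per selected cell, which limits genes of few UMIs. Genes named are those of the rule, those of the lists, and the 10 with the largest and the 10 with the smallest ratios in each comparison. Doublets were not removed, and leaving out the top 5% of Scrublet scores was an alternative. Other alternatives changed the share of cells selected, the scoring, the subtraction, the scaling, the UMI minimum, the comparison group and the fold. The scripts were tested on simulated data. Python 3.11.15, numpy 2.4.6, scipy 1.17.1, pandas 2.3.3, matplotlib 3.10.9 and scanpy 1.11.5 were used. Promoter sequences are from RefSeq, and protein sequences were not used here. The values of 1 gene are not reported here.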

Additional observations from a re-analysis of the deposited data

How the results depend on the processing

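No paired analysis was possible because each group is 1 library. For the same reason no replicate could be left out, and the intervals cover counting error only. Across 14 alternatives, 920 values for single named genes were compared with the reported ratios. Alternatives that changed only the UMI minimum used the same cells, so their values could not move. The changed fold gave no values for single genes. For selected cells against other enterocytes, the interval ran from the lowest to the highest limit of the 3 libraries. With these limits, 869 of the 920 values stayed within the interval, 48 moved past it and 3 were on the other side of 1. Those 3 were all of Gzma, whose ratio of B + A 0 to AOS 0 was 0.921 with the top 12% selected and 0.719 with cells scored after thinning to 1000 UMIs, where its ratio of B + A 10 to AOS 0 was 0.926. Scoring after thinning kept 266 (52.4%) of the 508 cells.

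With 50 UMIs required, the counts of genes past the fold were 114 higher and 252 lower for B + A 0 against AOS 0, 173 and 108 for B + A 10 against B + A 0, and 189 and 262 for B + A 10 against AOS 0. With 300 UMIs they were 13 and 8, 11 and 5, and 27 and 16 in the same order, and 1 higher and 11 lower for selected cells against other enterocytes. With a fold of 2, an alternative chosen after seeing the data, they were 13 and 7, 2 and 10, and 18 and 7. With the top 5% selected, 25 were higher and 39 lower in B + A 0 than in AOS 0, and 26 were higher in B + A 10 than in B + A 0. With the top 12%, 42 were lower in B + A 10 than in B + A 0. Without the subtraction, 59 were higher in B + A 0 than in AOS 0, 46 were lower in B + A 10 than in B + A 0, and 19 were higher in selected cells than in other enterocytes. With other enterocytes from the top 20%, 1 was higher and 16 lower in selected cells, and without ileal cells, also chosen after seeing the data, 13 were lower. Leaving out the 26 selected cells highest in Paneth, goblet and T cell genes, chosen after seeing the data too, kept each count within 1.5 times.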
